A study of Mus musculus with 4 samples.

Results

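The proliferins Prl2c2, Prl2c3, Prl2c4 and Prl2c5 are near-identical genes of the mouse prolactin family on chromosome 13. They were taken as the entries that carry exactly these symbols in the deposited expression tables, 4 entries among 61630 in the total RNA tables and among 24992 in the polyA tables, and each was described alone and as a sum. They had been selected on their FPKM changes between these same libraries, so those changes are given as a description without a test. The C2C12 line consists of mouse myoblasts, which stop dividing and fuse into myotubes when growth medium is replaced by differentiation medium (DM). Proliferating myoblasts (MB, DM -24 h) and myotubes (MT) were profiled by RNA-seq of total RNA depleted of rRNA. MT is labelled DM 72 h, while a legend of the study gives an earlier time in DM for MT in an RNA-seq comparison, and the label is used here. Cells transfected with 100 nM of a control siRNA (si-NC) or of an siRNA against hnRNPL (si-hnRNPL), 24 h before DM and kept in DM for 48 h, were profiled by RNA-seq of polyA RNA. There was 1 library per condition, so differences could not be set against replicate error and are given without p-values. The total RNA and polyA libraries differ in RNA selection, time and transfection, and their levels are set side by side without a comparison.

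Prolactin-family proteins are secreted hormones. In the mouse the family has expanded into a large gene group, most of whose members are made by the placenta, where trophoblast giant cells secrete proliferin. Proliferin was found as a transcript that serum and growth factors induce in cultured fibroblasts, is a known product of proliferating C2C12 myoblasts, promotes angiogenesis, and binds the mannose 6-phosphate/IGF2 receptor (Igf2r).

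Because fragments of these genes are hard to tell apart, the sequences are shown before the levels. In mm9 the deposited loci lie on chr13, with Prl2c3 at chr13:12883087-12892346, Prl2c2 at chr13:13088390-13097597 and Prl2c5 at chr13:13275048-13284107 in the total RNA tables (chr13:13274982-13284192 in the polyA tables). Prl2c4, at chr13:12883082-12892325, overlaps Prl2c3 over 9238 bp, and RefSeq lists Prl2c4 as a synonym of Prl2c3. The 4 symbols therefore stand for 3 separate loci. Prl2c3 and Prl2c2 are annotated on the minus strand and Prl2c5 on the plus strand, each with 5 coding exons. The gap from Prl2c3 to Prl2c2 is 196 kb, that from Prl2c2 to Prl2c5 is 177 kb, and Prl, the prolactin gene itself, lies 13.9 Mb further on.

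The coding sequences of Prl2c2 and Prl2c3, each of 675 bases, differed at 3 positions (99.6% identity). Prl2c5 had a coding sequence of 669 bases and shared 96.1% identity with Prl2c2 and 96.0% with Prl2c3. The third coding exon, an internal exon of 108 bases, is shown because Prl2c2 and Prl2c3 are the same throughout it, while Prl2c5 differs at 5 positions. It lies at chr13:13090848-13090955 in Prl2c2, chr13:12885555-12885662 in Prl2c3 and chr13:13281635-13281742 in Prl2c5 (mm9), it is printed 5′ to 3′ along each gene's own strand, and capitals mark the positions that are not alike in all 3 genes.
Prl2c2: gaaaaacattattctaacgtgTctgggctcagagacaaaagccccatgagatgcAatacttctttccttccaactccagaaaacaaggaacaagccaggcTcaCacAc
Prl2c3: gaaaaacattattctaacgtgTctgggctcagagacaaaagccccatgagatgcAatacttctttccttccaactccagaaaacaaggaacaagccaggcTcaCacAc
Prl2c5: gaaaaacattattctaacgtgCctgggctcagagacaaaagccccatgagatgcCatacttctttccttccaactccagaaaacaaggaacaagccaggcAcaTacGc

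The fourth coding exon, of 183 bases, is shown because it carries 1 of the 3 coding differences between Prl2c2 and Prl2c3. It lies at chr13:13089552-13089734 in Prl2c2, chr13:12884259-12884441 in Prl2c3 and chr13:13282853-13283035 in Prl2c5 (mm9), and capitals again mark the 6 positions that are not alike in all 3 genes.
Prl2c2: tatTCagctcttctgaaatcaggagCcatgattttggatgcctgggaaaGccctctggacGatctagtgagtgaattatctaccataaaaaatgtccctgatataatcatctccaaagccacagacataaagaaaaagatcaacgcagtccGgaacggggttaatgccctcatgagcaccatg
Prl2c3: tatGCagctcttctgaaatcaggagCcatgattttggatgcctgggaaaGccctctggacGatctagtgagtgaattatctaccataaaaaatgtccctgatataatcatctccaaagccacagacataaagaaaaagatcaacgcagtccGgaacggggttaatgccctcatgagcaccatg
Prl2c5: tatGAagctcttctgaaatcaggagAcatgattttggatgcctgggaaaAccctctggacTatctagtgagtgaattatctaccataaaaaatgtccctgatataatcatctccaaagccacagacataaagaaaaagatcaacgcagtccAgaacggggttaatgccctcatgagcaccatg

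A read can be placed on one of these transcripts only where it covers a difference. The shortest reads kept by the authors had 36 bases, and at that length 84.7% of the windows along the Prl2c3 transcript also occurred in Prl2c2. Of the windows of 36 bases, 15.3% were found in Prl2c3 alone, 10.4% in Prl2c2 alone and 69.7% in Prl2c5 alone. The transcripts compared were those of Prl2c2, Prl2c3 and Prl2c5. Prl2c4, whose locus overlaps that of Prl2c3, was left out. At 100 bases the shares unique to one transcript were 37.3% for Prl2c3, 34.5% for Prl2c2 and 97.2% for Prl2c5. The division of the signal between Prl2c2 and Prl2c3 is thus an estimate made by the quantification software from a minority of positions, whereas Prl2c5 is separable along most of its length.

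Levels are given as FPKM, fragment numbers scaled to transcript length and library size, which allows genes of different length to be compared. The bounds in parentheses are the deposited 95% intervals, which reflect the counting of fragments and hold no difference between cultures. How far they hold the uncertain assignment of fragments between near-identical genes was not tested. Prl2c3, the most abundant proliferin, stood at 179.6 FPKM (176.0 to 183.2) in MB, 3.15 (2.69 to 3.61) in MT, 93.1 (87.3 to 98.8) in si-NC and, with si-hnRNPL, 67.3 (61.9 to 72.6). Prl2c2 stood at 110.2 (107.3 to 113.1) in MB, 1.81 (1.45 to 2.18) in MT, 61.5 (57.9 to 65.2) in si-NC and, with si-hnRNPL, 44.5 (40.6 to 48.3). Both genes were high in MB and low in MT, and both were lower in si-hnRNPL than in si-NC. The intervals did not overlap in either comparison. The share of all entries without such overlap was not computed, so nothing is read from it.

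Prl2c5 and Prl2c4 made up the small remainder. Prl2c5 had 0.823 FPKM (0.550 to 1.10) in MB, 0.193 (0.0644 to 0.322) in MT, 3.63 (2.81 to 4.45) in si-NC and, with si-hnRNPL, 1.96 (1.21 to 2.71). Prl2c4 had 1.59 FPKM (1.12 to 2.05) in MB, 1.15 (0.477 to 1.82) in si-NC and, with si-hnRNPL, 1.69 (0.680 to 2.70). In MT Prl2c4 was listed at 8.35e-07 FPKM with an upper bound of 0.034. The order of the smallest entries changed with the library. Prl2c4 was above Prl2c5 in MB and below it in MT and si-NC without overlap of their intervals, while in si-hnRNPL their intervals overlapped. Because Prl2c4 shares the locus of Prl2c3, its values describe the division as deposited, and nothing about a separate gene is read from this order.

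**Figure D1:**
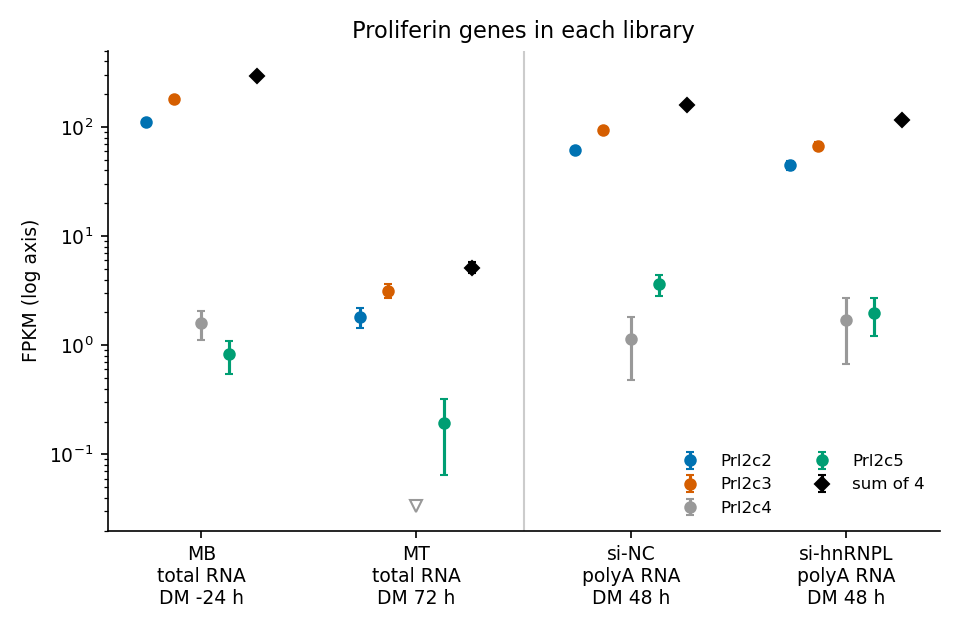
FPKM of each proliferin gene (circles) and of their sum (diamonds) in the 4 libraries on a log axis, with bars for the deposited 95% intervals. The open triangle marks the upper bound of 0.034 for Prl2c4 in MT, and the grey line separates total RNA from polyA libraries. Prl2c3 lies above Prl2c2 in every library, and both are lower in MT than in MB and lower in si-hnRNPL than in si-NC.

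Summed over the 4 entries, proliferin RNA amounted to 292 FPKM (288 to 297) in MB and 5.16 FPKM (4.56 to 5.76) in MT. The sum was 159 FPKM (152 to 166) in si-NC and, with si-hnRNPL, 115 FPKM (109 to 122). The annotated transcripts of Prl2c2 and Prl2c3 are both 850 bases long. If each shared fragment was counted once at the same effective length, the sum of this pair does not depend on their division. How shared fragments were counted is not given in the sources used here. The make-up of the sum varied little. Prl2c3 supplied 61.5% of it in MB, 61.1% in MT, 58.4% in si-NC and 58.3% in si-hnRNPL, and Prl2c2 supplied 37.7%, 35.2%, 38.6% and 38.5%. The ratio of Prl2c3 to Prl2c2 was 1.63 in MB, 1.74 in MT, 1.51 in si-NC and 1.51 in si-hnRNPL. Since most windows are shared by both transcripts, a steady ratio describes the division as deposited and is no independent measure of either gene.

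Ranked by FPKM among named entries, Prl2c3 was 347th and Prl2c2 678th of 24850 in MB. In MT they were 9705th and 10696th. In the polyA libraries, with 24992 named entries, Prl2c3 was 820th in si-NC and 1266th in si-hnRNPL, and Prl2c2 was 1334th and 1952nd. In MB Prl2c3 and Prl2c2 were thus among the more abundant named entries, unlike Prl2c4 and Prl2c5.

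The width of an interval implies an effective number of fragments behind each value. For Prl2c3 this was 9915 in MB and 190 in MT, and for Prl2c2 5756 and 99.6. For Prl2c5 it was 36.5 and 9.0, and for Prl2c4 46.6 in MB. In si-NC and si-hnRNPL Prl2c3 had 1045 and 637, Prl2c2 1137 and 526, Prl2c5 78.2 and 27.5, and Prl2c4 11.7 and 11.2. The intervals of Prl2c3 and Prl2c2 are therefore narrower for their level than those of the minor entries. Whether these intervals hold the uncertainty of the division between Prl2c2 and Prl2c3 was not tested. In the polyA libraries Prl2c3 had fewer effective fragments per FPKM than Prl2c2, 11.2 against 18.5 in si-NC and 9.47 against 11.8 in si-hnRNPL, so that its interval was wider for its level.

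The comparison of MT with MB asks how proliferin RNA changed as myoblasts became myotubes. The sum was 56.7-fold higher in MB than in MT (50.4 to 63.7, from the deposited intervals), which leaves MT at 1.76% (1.57 to 1.98) of the level in MB. Changes are written as log2((FPKM + 1) ratio), a scale that understates the change of entries with low FPKM, and an entry was counted as changed at an absolute value of 0.58, the 1.5-fold threshold of the study's methods. On this scale Prl2c3 changed by -5.44 (-5.60 to -5.28) and Prl2c2 by -5.31 (-5.50 to -5.11), and the sum by -5.57 (-5.72 to -5.43). Prl2c4 changed by -1.37 (-1.64 to -1.11) and Prl2c5 by -0.61 (-0.88 to -0.35). All 4 entries were counted as lower in MT, where 18.3% of 18624 named entries were lower and 10.4% were higher. The rule that selected the genes used this contrast, so nothing is read from that count.

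Without the added 1, MB exceeded MT 57.0-fold (49.2 to 66.0) for Prl2c3, 60.8-fold (49.7 to 74.4) for Prl2c2 and 4.26-fold (2.02 to 8.97) for Prl2c5. The deposited ratio of the minor gene Prl2c5 was thus smaller than that of the major pair, without overlap of the intervals. It rests on 36.5 effective fragments in MB and 9.0 in MT, and 30.3% of the 36-base windows of Prl2c5 also occur in Prl2c2. Whether fragments of the pair were assigned to Prl2c5 was not tested, so no difference between the genes is read from it. The 10791 named entries that reached 1 FPKM in MB and in MT had a median change of -0.23, and relative to that median the sum changed by -5.35. After the same recentring Prl2c5 changed by -0.38 and was no longer counted, leaving 3 of the 4 entries, and the counts over all named entries turned from 1942 higher and 3407 lower to 3060 higher and 2208 lower. Among those 10791 entries 0 had a change below that of Prl2c3, and 1 had a change below that of Prl2c2, namely Prl2c3. This set leaves out every entry that fell below 1 FPKM in MT. The proliferins were selected on this contrast, so nothing is read from the ranking. RNA from a culture cannot tell fewer expressing cells from less RNA in each cell, here and in every comparison that follows.

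In the knockdown Prl2c2, Prl2c3 and Prl2c5 had lower values than in si-NC, and Prl2c4 had a higher one. Hnrnpl, the targeted gene, stood at 95.1 FPKM in si-NC and at 85.9 in si-hnRNPL, a change of -0.14 (-0.20 to -0.09) that did not reach 0.58 and was smaller than that of the proliferin sum. The RNA tables thus show little loss of the target, and knockdown here names the library by its label. The study examined the knockdown of hnRNPL protein by Western blot, which these RNA values do not measure. The proliferin sum in si-hnRNPL was 72.4% (67.3 to 77.8) of that in si-NC, a change of -0.46 (-0.57 to -0.36). Prl2c2 and Prl2c3 each changed by -0.46, with intervals of -0.61 to -0.31 and -0.61 to -0.32, and neither reached 0.58. Prl2c5 changed by -0.64 (-1.09 to -0.20) and Prl2c4 by 0.32 (-0.38 to 1.03). Prl2c5 was the 1 entry of 4 counted as lower, where 0.62% of 16767 named entries were lower and 1.03% were higher, and its interval runs across the threshold. Prl2c4 has an interval that includes 0, and its direction is not resolved. The count of 1 of 4 therefore rests on the entry of low abundance, while the pair that holds 97.0% of the proliferin FPKM in si-NC lay below the threshold.

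The 11090 entries that reached 1 FPKM in each polyA library had an SD of 0.23 around a median of -0.011. Of these, 201 (1.81%) had a change below that of the proliferin sum. The selection of the genes also used this contrast, so nothing is read from that share. Proliferin transcripts are short, so the changes of genes of similar exon length were also taken. No relation of change to length across all genes was computed. Protein-coding genes with 600 to 1200 bases of exon, 453 in number, had a median change of 0.17, and relative to these the sum changed by -0.63, past the threshold. In MT over MB the 445 genes of that length had a median of -0.40 and the sum changed by -5.17 relative to them. The part of transcript length in either change was not tested. Without replicate libraries, the difference between cultures treated alike is unknown.

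**Figure D2:**
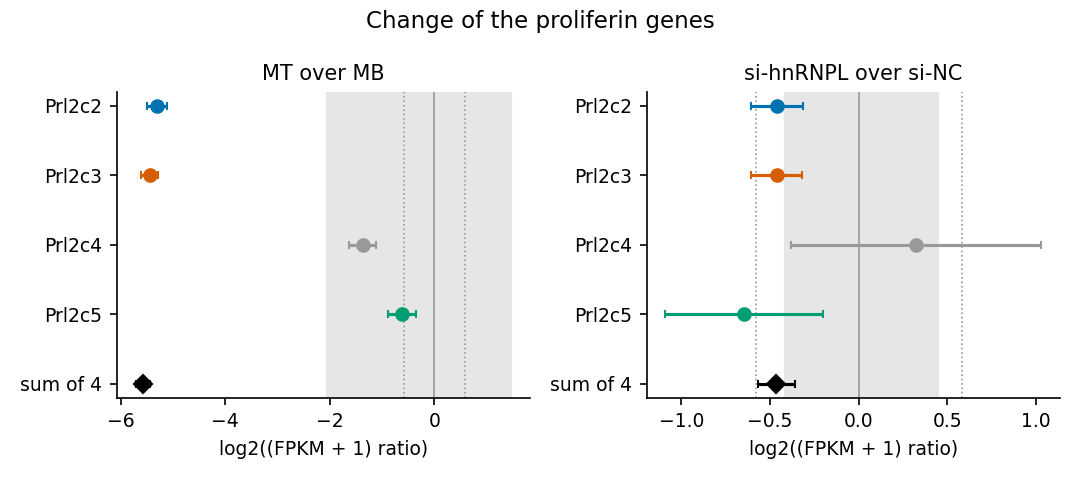
Log2((FPKM + 1) ratio) of the 4 proliferin genes and their sum in MT over MB (left) and si-hnRNPL over si-NC (right), on axes of different scale, with bars for the intervals derived from the deposited 95% intervals. Grey bands hold the central 95% of named entries that reached 1 FPKM on both sides, and dotted lines mark an absolute change of 0.58. Prl2c3, Prl2c2 and the sum lie far outside the band on the left and just beyond it on the right.

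Some genes of the cell cycle and of the myotube also changed in both comparisons. Of 8 proliferation genes (Mki67, Top2a, Ccnd1, Ccna2, Ccnb1, Cdk1, Pcna and Mcm2) 8 were lower in MT, with a median change of -2.39 and a summed level of 906 FPKM in MB and 184 in MT. In the knockdown 3 of the 8 were lower, with a median of -0.50 and sums of 439 and 317. The 3 were Mki67 at -0.62, Top2a, a topoisomerase of dividing cells, at -0.60, and Ccnd1, which encodes cyclin D1, at -0.62. The fall of the proliferin sum was larger than that of each of the 8 genes in MT, the nearest being Ccnb1, a mitotic cyclin, at -3.08, and in the knockdown it lay within their range of -0.62 to -0.31.

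Of 8 listed myotube genes 8 were higher in MT (median 6.77, sums of 16.8 and 1991 FPKM), and 3 were higher in si-hnRNPL (median 0.47, sums of 2996 and 4495 FPKM). Those 3 were Ckm, the muscle creatine kinase, at 0.71, Mylpf, a fast myosin light chain, at 0.69, and Acta1, skeletal muscle actin, at 0.61. Among the myoblast and myotube markers Myod1, Myf5, Des, Myog and Ckm, 4 of 5 were higher in MT and 1 of 5 in si-hnRNPL. The part of proliferation and differentiation state in the proliferin changes was not tested.

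The rest of the prolactin family was close to silent. All 24 other genes searched for, which include the growth hormone gene Gh beside the Prl genes, were listed. These genes had levels too low for any of them to reach a change of 0.58 with 1 FPKM added. Their highest level was 0.137 FPKM in MB, 0.0268 in MT, 0.0449 in si-NC and 0.0716 in si-hnRNPL, and 14, 23, 22 and 21 of them were listed at 0. Against the proliferin sum of 292 FPKM, the summed level of all 24 in MB was 0.660 FPKM. Trophoblast markers were at a like level. Hand1, Gcm1, Elf5, Cdx2, Tpbpa, Prl3d1 and Prl3b1 had at most 0.107 FPKM, with Hand1, Cdx2, Tpbpa and Prl3b1 at 0 in all 4 libraries. Proliferin RNA was thus present in these cells with the defining trophoblast markers at or near 0.

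Genes for receptors were measured too. Igf2r, which encodes the proliferin-binding receptor named above, was higher in MT (7.40 to 24.4 FPKM, 1.60) and changed by -0.26 in the knockdown. M6pr, the cation-dependent mannose 6-phosphate receptor, had 80.4 FPKM in MB and 65.4 in MT. Ghr, the growth hormone receptor, was higher in MT (17.6 to 49.0 FPKM, 1.42), and Prlr, the prolactin receptor, had at most 0.0525 FPKM. In all 2 of 4 receptor genes were higher in MT and 0 of 4 changed in si-hnRNPL.

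AP-1, a dimer of Jun and Fos proteins that responds to growth factors, is known to activate a proliferin promoter, and the glucocorticoid receptor Nr3c1 is known to act on it as well. Of 8 genes for these factors (Jun, Junb, Jund, Fos, Fosb, Fosl1, Fosl2 and Nr3c1) 1 was lower in MT and 0 were higher, with a median of 0.03. The one was Fosl1, which encodes Fra-1, with 38.3 FPKM in MB and 2.36 in MT, a change of -3.55. In si-hnRNPL 0 of 8 changed, and Fosl1 stood at 2.96 FPKM in si-NC and at 2.95 after knockdown. The other 7 genes lay between -0.24 and 0.42 in MT over MB.

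The promoters of Prl2c3 and Prl2c5, which differ strongly in level, were searched for an AP-1-like pattern, the E box and TATA motifs. The promoter of Prl2c2 was not among the sequences used. No motif of the glucocorticoid receptor was searched. The 250 bases before the start site in RefSeq (GRCm38.p6, a later build than the tables) lie at chr13:12800080-12800329 on the minus strand for Prl2c3 and at chr13:13182466-13182715 on the plus strand for Prl2c5. The promoters were alike at 241 aligned positions, with 8 mismatches and 2 gaps, and capitals mark the bases that differ or have no partner.
Prl2c3: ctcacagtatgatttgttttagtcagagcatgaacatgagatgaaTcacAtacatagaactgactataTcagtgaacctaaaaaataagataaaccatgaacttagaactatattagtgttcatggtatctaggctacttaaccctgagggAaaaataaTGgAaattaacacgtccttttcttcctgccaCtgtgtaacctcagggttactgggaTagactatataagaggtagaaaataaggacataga
Prl2c5: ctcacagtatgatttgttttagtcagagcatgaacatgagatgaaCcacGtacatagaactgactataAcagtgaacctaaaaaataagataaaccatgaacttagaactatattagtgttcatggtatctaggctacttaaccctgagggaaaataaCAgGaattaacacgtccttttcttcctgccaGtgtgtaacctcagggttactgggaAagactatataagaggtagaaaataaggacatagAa

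The AP-1-like pattern TGANTCA, in which N is any base, was searched on both strands. It occurred once in the Prl2c3 sequence, 209 bases before the start, and 0 times in that of Prl2c5. The Prl2c3 match reads TGAATCA, with A at N, and a differing base lies inside it. The pattern is broader than a strict AP-1 site because it takes any base at N, so this match is only AP-1-like. The difference between the promoters in matches depends on that choice of pattern. Of 27025 promoters of the same length 6.87% held the pattern. The TATA motif TATATAA occurred once in each, 30 bases before the start in Prl2c3 and 31 in Prl2c5, and in 3.26% of all promoters, while TATAAA occurred in neither and in 12.97% of all. The E box CANNTG, bound by MyoD and related factors, occurred in neither sequence and in 66.0% of all promoters. A match is a run of letters and not a measured binding site, and the windows end 250 bases before the start. The part of these motifs in the levels of the genes was not tested.

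The chromosomal neighbours did not share the size of the proliferin change in MT. On the side of Prl2c3 the nearest named genes were Gpr137b-ps, Ero1lb and Edaradd, with changes of -0.45, -0.32 and -0.03 in MT over MB. On the side of Prl2c5 they were Gpr137b, Nid1 and Lyst, with -0.57, -1.28 and 0.94. Nid1, which encodes the basement membrane protein nidogen-1, was thus the 1 neighbour of 6 counted as lower (101 FPKM in MB and 41.2 in MT) and Lyst the 1 counted as higher. In the knockdown the neighbours ranged from -0.41 (Nid1) to 0.03 (Lyst), and 0 of 6 reached 0.58.

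The total RNA tables also list transcript units assembled from the reads, and 28 of them lie between Gpr137b-ps and Gpr137b without overlapping a proliferin gene. Of these 24 had a higher FPKM in MT than in MB, where 79.3% of all 36780 units did. Between Prl2c3 and Prl2c2 this held for 20 of 20 units, whose median went from 0.0214 FPKM in MB to 0.193 in MT, with 118 effective fragments in all in MB and 1077 in MT. Between Prl2c2 and Prl2c5 it held for 1 of 5 units, and before Prl2c3 for 3 of 3. Every one of these differences was under 0.58 on the log2((FPKM + 1) ratio) scale, on which entries of low FPKM move little. The 20 units between the major pair of genes had at most 0.476 FPKM in MT, and 6 of them were listed at 0 in MB. Units are listed only because they were assembled from the reads of these libraries, and most units in the tables were higher in MT, so nothing particular to this stretch is read from the counts.

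**Figure D3:**
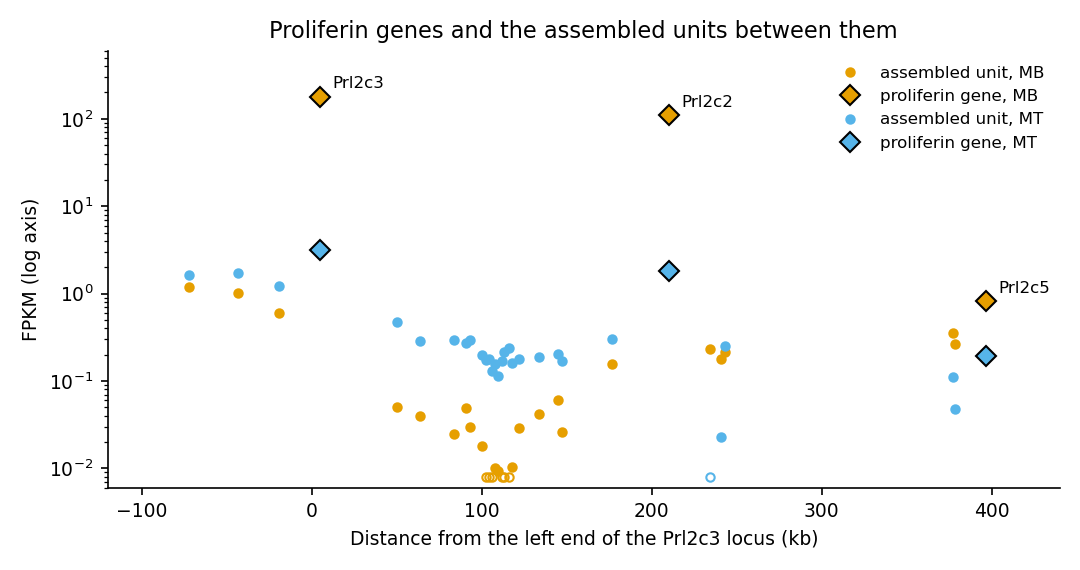
FPKM on a log axis of the proliferin genes (diamonds) and of the 28 assembled units between Gpr137b-ps and Gpr137b (circles) in MB (orange) and MT (blue), against the distance in kb from the left end of the Prl2c3 locus. Open circles at the bottom stand for units listed at 0, and Prl2c4, which overlaps Prl2c3, is not drawn. The proliferin genes are lower in MT, while the 20 units between Prl2c3 and Prl2c2 are all higher there.

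To find genes with a like pattern, each gene with at least 10 FPKM in MB and at least 1 FPKM in si-NC was placed by its changes in both comparisons, and the distance to the proliferin sum was taken on the log2((FPKM + 1) ratio) scale. Of 6360 genes the closest was Nefl, which encodes the light neurofilament, at a distance of 0.756, with changes of -5.10 in MT and -1.06 in si-hnRNPL. Next came Cnn1, which encodes calponin 1, at a distance of 1.23 with changes of -4.49 and 0.13. Further off were Plaur, the gene of the urokinase receptor, at 1.67 with -3.96 and -0.02, and Fosl1 at 2.08 with -3.55 and -0.00. The likeness rests on 4 libraries and chiefly on the large fall in MT. Of the 6360 genes 0 fell as far in MT as the proliferin sum, and 52 were counted as lower in both comparisons. The proliferins were selected on these changes, so nothing is read from their extreme place. The pair of changes that came closest, that of Nefl, differed from the proliferins in the knockdown, where Nefl went from 8.18 to 3.41 FPKM.

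**Figure D4:**
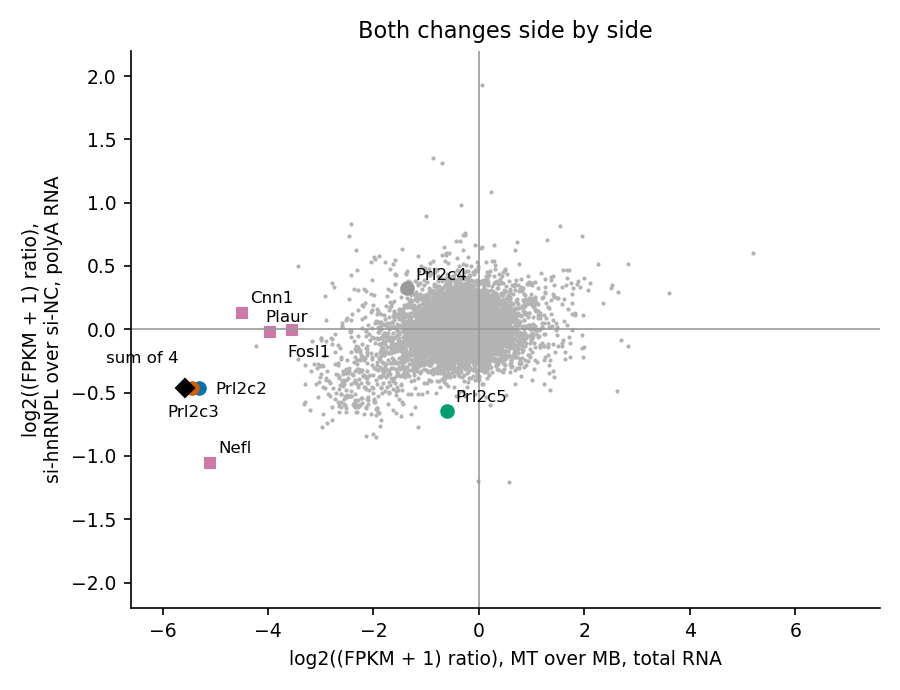
Log2((FPKM + 1) ratio) of MT over MB on the horizontal axis and of si-hnRNPL over si-NC on the vertical axis for genes with at least 10 FPKM in MB and 1 FPKM in si-NC (grey), Nefl, Cnn1, Plaur and Fosl1 (squares) and the proliferins (circles, with a diamond for the sum). 8 genes lie beyond the vertical axis, and Prl2c4 and Prl2c5 are drawn although they are below the filter. Prl2c2, Prl2c3 and the sum lie at the left edge of the cloud, with Nefl the nearest.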

How the data were processed

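RNA-seq of C2C12 cells gave 4 libraries, 1 per condition. According to the study's methods, reads were trimmed, those shorter than 36 bp were discarded, TopHat (v2.0.13) was used to map the rest to mm9, and Cufflinks (v2.1.1) to estimate abundance. The authors deposited FPKM values with 95% intervals, so no count test was run. Strand and the handling of multiply mapped reads are not given in the sources used here.

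The log2 change was computed with a pseudocount of 1 FPKM and counted at an absolute value of 0.58. Half-widths of intervals were added in quadrature, which treats entries as independent. Effective fragments are the square of 2 x FPKM / (upper bound - FPKM), in all 59960176 in MB and 54442423 in MT, and in the polyA libraries 21341051 (si-NC) and 14592480 (si-hnRNPL). Coding sequences came from the GENCODE annotation of NCBIM37 (mm9) and promoters from RefSeq (GRCm38.p6). The members and gene lists were chosen with earlier results of these data known. Named genes were the 4 members, Hnrnpl, those lists, 3 neighbours on each side and the 5 genes of most similar change, of which 1 is not reported here. Python 3.11.15, numpy 2.4.6, pandas 2.3.3, Biopython 1.88 and matplotlib 3.10.9 were used, and the calculation was tested on simulated data. The simulation used independent counts without low-count entries or fragments shared between genes, so it did not test the intervals of the proliferins.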

Additional observations from a re-analysis of the deposited data

How the results depend on the processing

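The proliferin sum kept its direction under all 10 alternatives in each comparison, 2 of which (exon length and the sum of Prl2c2 and Prl2c3) were chosen after seeing the data. In MT over MB it changed by -5.80 and -5.82 with pseudocounts of 0.1 and 0.01 FPKM, -5.35 after centring on the median, -5.42 as the least difference the intervals allow, -5.17 relative to genes of like exon length, -5.40 without Prl2c2 and -5.24 without Prl2c3. In si-hnRNPL over si-NC the least difference was -0.32 and the change relative to genes of like exon length was -0.63, the only alternative past 0.58. Prl2c5 passed 0.58 in MT over MB under 2 of 5 alternatives and in si-hnRNPL under 4 of 5. With pseudocounts of 0.1 and 0.01 FPKM the change of Prl2c4 in MT over MB was -4.08 and -7.32, since it is listed near 0 in MT. The count of named genes higher in MT was 1942, and 3414 with a pseudocount of 0.1, 931 at an absolute log2 change of 1, 1293 with at least 1 FPKM in both libraries and 3060 after centring. The count lower in MT was 3407, and 1571 at a log2 change of 1 and 2208 after centring. In si-hnRNPL the counts of 172 higher and 104 lower became 829 and 639 with a pseudocount of 0.1 and 38 and 17 at a log2 change of 1. Leaving out a replicate could not be done with 1 library per condition. No paired analysis was possible because each condition has 1 library and the labels give no replicate numbers. The deposited intervals limit the minor entries most, and no value measures the spread between cultures.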
